A study of Mus musculus with 9 samples.

Results

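The NF-kappaB subunits and feedback inhibitors were followed as 10 genes in the mouse hippocampus: the 5 subunit genes Nfkb1, Nfkb2, Rel, Rela and Relb, the 3 IkappaB inhibitor genes Nfkbia, Nfkbib and Nfkbie, the ubiquitin editor Tnfaip3, and the nuclear IkappaB protein gene Bcl3. They were chosen by gene symbol, and all 10 of 10 were listed among the 24411 genes of each mouse. All 10 also passed the minimum expression for testing, a mean over the mice of at least log2(10), which left 14867 genes.

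The study asked whether CWG-cPIP, a cyclic pyrrole-imidazole polyamide that binds CAG and CTG repeat DNA, alters the response of the hippocampus to expanded CUG repeat RNA. RNA came from the hippocampi of 9 male wild-type C57BL/6J mice, labelled as 10 weeks old, 10 days after an AAV9 vector was injected into the CA1 region on both sides. In CUG300 mice the vector carried 300 CTG repeats in the 3′ untranslated region of Egfp, and 3 of these mice received CWG-cPIP and 3 received vehicle in the same injection. The 3 CUG10 mice received the vector with 10 CTG repeats and vehicle, so every mouse carried the vector and Egfp, and no CUG10 mouse received CWG-cPIP. The repeat RNA is thus made by a virus in cells that took it up, and the promoter that drives it is not given in the sources used here. Each mouse gave 1 library, and replicates are numbered within each group.

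NF-kappaB transcription factors are dimers of Rel family proteins. In resting cells IkappaB proteins hold most of them in the cytoplasm. Receptors for tumor necrosis factor, interleukin 1 and microbial products activate IkappaB kinases, the IkappaB proteins are degraded, and the freed dimers turn on cytokine, chemokine and adhesion genes, mainly in microglia, invading leukocytes, astrocytes and endothelial cells of the brain. Several subunit and inhibitor genes are themselves known targets of NF-kappaB, so that their mRNA forms a feedback loop, and Nfkbia and Tnfaip3 are its best known brakes.

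NF-kappaB dimers bind short kappaB elements in DNA, and the stretches below are shown because they hold the matches to that element near the start sites of the members. The consensus searched was GGG, a purine, any base, A or T, a pair of pyrimidines and CC, on both strands, and matches that overlapped share 1 stretch. RefSeq windows of 250 bases before to 50 bases after a start site on GRCm38.p6 were at hand for 8 members, 11 windows in all, and Nfkb1 and Relb had none. A match lay in 6 of the 8 members, against 5.14% of 27025 genes with a window, and in 8 of the 11 windows, against 4.51% of 32851 mouse windows. Of these 8 windows 3 are those of Nfkb2, and 2 of its windows overlap and share 1 match, so the matches form 10 stretches. The capitals mark the match, each stretch runs 5′ to 3′ on the strand of its gene, and positions count from the start site of that window.
Bcl3, chr7:19822734-19822763, minus strand, match at 2 bases after the start: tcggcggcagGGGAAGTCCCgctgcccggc
Nfkb2, chr19:46304688-46304717, plus strand, 39 bases before the start: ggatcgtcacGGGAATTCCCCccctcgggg
Nfkb2, chr19:46304716-46304745, plus strand, 11 bases before the start: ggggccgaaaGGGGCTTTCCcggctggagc
Nfkb2, chr19:46305449-46305478, plus strand, 236 bases before another start: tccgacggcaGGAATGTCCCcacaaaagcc
Nfkb2, chr19:46305695-46305724, plus strand, 10 bases after that start and 225 before a further one: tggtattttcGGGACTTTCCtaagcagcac
Nfkbia, chr12:55492657-55492686, minus strand, 29 bases before the start: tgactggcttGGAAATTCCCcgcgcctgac
Nfkbie, chr17:45555584-45555613, plus strand, 106 bases before the start: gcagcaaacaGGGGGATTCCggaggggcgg
Rel, chr11:23771042-23771071, minus strand, 92 bases before the start: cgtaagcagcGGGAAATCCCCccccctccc
Tnfaip3, chr10:19015516-19015545, minus strand, 125 bases before the start: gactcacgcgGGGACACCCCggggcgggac
Tnfaip3, chr10:19015403-19015432, minus strand, 12 bases before the start: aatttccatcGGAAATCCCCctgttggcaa
In Rel and in the first Nfkb2 stretch 2 matches, 1 on each strand, overlap and form an 11-base run, and each other stretch holds 1 match. The windows of Nfkbib and Rela held no match in these letters. A second pattern, GAAANNGAAA, a pair of GAAA runs spaced by 2 bases and typical of interferon response elements, was in 0 of the 11 windows and in 3.44% of all windows. A match is a description of the letters only and was not tested for binding.

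Expression was given by the study as rlog values, regularized log2 values that are scaled between libraries and drawn toward each gene's mean, the more so for low genes. A difference of 1 is therefore a 2-fold difference on that scale and may understate low genes such as Rel and Bcl3. As the values are not counts, library depth is unknown, and as they are not per length, levels are compared between mice and not between genes. The median of the tested genes lay between 8.43 and 8.54 in the 9 mice. Nfkb2 overlaps Psd, and Nfkbib overlaps Sirt2, on the opposite strand in the GENCODE annotation of GRCm38. The paper names a directional library kit, but whether strand was used in counting is not stated. Reads from the shared stretches may thus have been counted for either gene of a pair.

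Hippocampal neuron markers were present in all mice, with mean rlog values over 8 genes of 9.96 to 10.1 in CWG-cPIP–treated CUG300 mice, 9.10 to 10.1 in vehicle-treated CUG300 mice and 9.64 to 9.74 in CUG10 mice. Choroid plexus markers, from tissue next to the hippocampus, were uneven among the mice, and their mean over 8 genes was 6.23 to 6.33 in CWG-cPIP–treated mice, 8.25 to 9.37 in vehicle-treated CUG300 mice, and 6.10, 7.81 and 9.18 in the CUG10 mice. Their part in the results on the members was not tested.

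In CUG300 mice given vehicle, 5 of the 10 members were higher than in CUG10 mice at an adjusted p under 0.05: Bcl3, Nfkb2, Nfkbie, Nfkb1 and Nfkbia. Of all genes tested, 7.37% were called higher in this comparison. All 10 means were higher, with a median log2 difference of 0.96 over the members, beside −0.011 over all genes tested. For 9 members, all but Nfkbib, every vehicle-treated CUG300 mouse was above every CUG10 mouse, which held for 18.2% of all genes. These 9 also had an unadjusted p under 0.05, as 16.3% of all genes did in this direction. Tests are limma's moderated test on all 9 mice with Benjamini-Hochberg adjustment over the 14867 genes. Each p-value sets the difference between groups against a variance between mice, pooled over all groups, including the CWG-cPIP–treated mice.

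**Figure D1:**
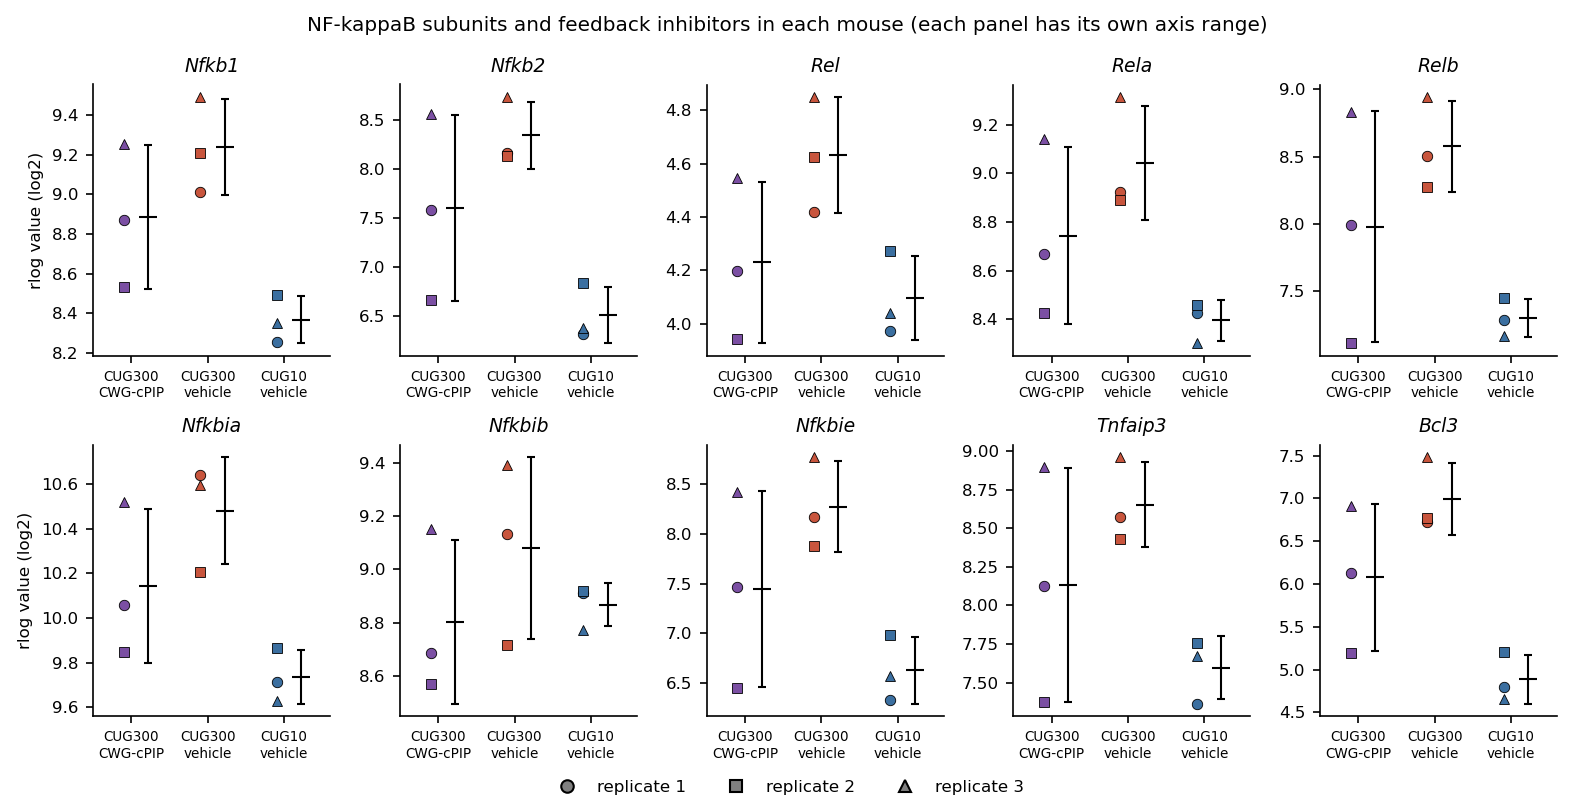
rlog value (log2, vertical axis, its range set per panel) of each member in each mouse, with CUG300 mice given CWG-cPIP on the left, CUG300 mice given vehicle in the middle and CUG10 mice on the right; symbols give the replicate number, and the bar beside the points is the mean with 1 SD (n = 3). For 9 members the vehicle-treated CUG300 points lie above all CUG10 points, while the CWG-cPIP points reach over both groups, as for Nfkb2 at 6.66, 7.58 and 8.56.

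Of the subunit genes, Nfkb2 and Nfkb1 were called and Relb, Rela and Rel were not. Nfkb2 encodes p100, which is cut to p52 and is the partner of RelB in the noncanonical pathway. Its rlog values were 8.16, 8.13 and 8.74 in vehicle-treated CUG300 mice, against 6.31, 6.84 and 6.37 in CUG10 mice. The groups lay 1.29 apart at their nearest mice. The log2 difference was 1.84 (SE 0.41, limma adjusted p = 0.0308), or 3.58-fold, the highest of the 5 subunits. The gene lies at chr19:46304320-46312385 on the plus strand.

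Nfkb1, at chr3:135584655-135691547 on the minus strand, encodes p105, the precursor of the p50 subunit of the classical dimer. It measured 9.01, 9.21 and 9.49 in vehicle-treated CUG300 mice, against 8.26, 8.49 and 8.35 in CUG10 mice. The groups did not overlap, with a gap of 0.52. The difference was 0.87 (SE 0.19, limma adjusted p = 0.0288), or 1.83-fold, a smaller difference than that of Nfkb2 with a smaller SE.

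RelB, the transcription-activating partner of p52, is encoded at chr7:19606217-19629438 on the minus strand. Relb had values of 8.51, 8.28 and 8.94 in vehicle-treated CUG300 mice, against 7.29, 7.45 and 7.17 in CUG10 mice. No mice overlapped, but the log2 difference of 1.27 (SE 0.37) did not pass the test (limma adjusted p = 0.0572). A fit of only the groups compared, without the CWG-cPIP–treated mice, gave Relb a limma adjusted p of 0.00400. Rela, at chr19:5637483-5648130 on the plus strand, encodes p65, the activating subunit of the classical dimer. It had 8.92, 8.89 and 9.31 in vehicle-treated CUG300 mice and 8.43, 8.46 and 8.30 in CUG10 mice, again without overlap. The difference was 0.65 (SE 0.19, limma adjusted p = 0.0572, and 0.0271 in the fit of only the groups compared).

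Rel, at chr11:23736847-23770970 on the minus strand, encodes c-Rel, the subunit best known from lymphocytes and myeloid cells. Its values were low in all groups, at 4.42, 4.63 and 4.85 in vehicle-treated CUG300 mice and 3.98, 4.27 and 4.04 in CUG10 mice. The nearest mice were 0.14 apart, and the difference of 0.53 (SE 0.17) did not pass the test (limma adjusted p = 0.0773). It also did not pass in the fit of only the groups compared (limma adjusted p = 0.0513).

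Among the IkappaB inhibitors, Nfkbie and Nfkbia were called and Nfkbib was not. Nfkbie encodes IkappaB-epsilon, at chr17:45555703-45563169 on the plus strand. Values were 8.17, 7.88 and 8.77 in vehicle-treated CUG300 mice, against 6.33, 6.99 and 6.57 in CUG10 mice, with a gap of 0.89 between the groups. The difference was 1.65 (SE 0.45, limma adjusted p = 0.0481), or 3.13-fold. This call was the nearest to the threshold among the 5: it was lost with quantile scaling (limma adjusted p = 0.0551), without the filter on low genes (0.0576) and with the robust variance (0.050025).

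Nfkbia, at chr12:55489410-55492647 on the minus strand, encodes IkappaB-alpha, the inhibitor that is degraded and made anew within each round of signaling. It had 10.64, 10.21 and 10.60 in vehicle-treated CUG300 mice and 9.72, 9.87 and 9.63 in CUG10 mice. Every vehicle-treated CUG300 mouse was above every CUG10 mouse. The difference was 0.74 (SE 0.18, limma adjusted p = 0.0369), or 1.68-fold.

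Nfkbib, at chr7:28758251-28767512 on the minus strand, encodes IkappaB-beta, which is known for slower turnover than IkappaB-alpha. It had 9.13, 8.71 and 9.39 in vehicle-treated CUG300 mice and 8.91, 8.92 and 8.77 in CUG10 mice. Replicate 2 of the CUG300 mice lay below all CUG10 mice. The difference was 0.21 (95% interval −0.23 to 0.65, limma adjusted p = 0.493), and this interval includes both no change and a change as large as that of Rela.

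Tnfaip3 and Bcl3 act outside the IkappaB trio. Tnfaip3 encodes A20, which edits ubiquitin chains on signaling proteins upstream of the IkappaB kinases and lies at chr10:19000910-19015657 on the minus strand. It had 8.57, 8.43 and 8.96 in vehicle-treated CUG300 mice and 7.36, 7.75 and 7.67 in CUG10 mice, without overlap. The difference of 1.06 (SE 0.33) did not pass the test (limma adjusted p = 0.0707). In the fit of only the groups compared the limma adjusted p was 0.00781.

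Bcl3, at chr7:19808462-19822770 on the minus strand, encodes a nuclear IkappaB protein that binds p50 and p52 dimers on DNA. It had 6.72, 6.78 and 7.48 in vehicle-treated CUG300 mice, against 4.80, 5.21 and 4.66 in CUG10 mice. The gap between the groups, 1.51, was wider than the range within either. The log2 difference was 2.10 (SE 0.39, limma adjusted p = 0.0232), or 4.30-fold, the largest among the 10 members.

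These 5 calls depended on single mice. No member was called without CUG10 replicate 1, 2 or 3, without vehicle-treated CUG300 replicate 3 or without CWG-cPIP–treated replicate 1, when 0 to 265 of all genes were called. Without vehicle-treated CUG300 replicate 1, 3 were called (Bcl3, Nfkb1 and Nfkb2), and without replicate 2 the same 5 were called. Of all genes, 2058 and 2490 were called in those fits, against 1592 with all mice. Without CWG-cPIP–treated replicate 2, 8 were called, which added Rela, Relb and Tnfaip3, when 1866 of all genes were called. Without replicate 3 of that group, 9 were called, which added Rel as well, when 2302 of all genes were called. The log2 differences moved less than the calls: over these fits Bcl3 ranged between 1.86 and 2.27 (limma adjusted p = 0.00233 to 0.103), Nfkb2 between 1.64 and 2.00 (0.00368 to 0.118), Nfkb1 between 0.74 and 0.99 (0.00735 to 0.111), Nfkbia between 0.66 and 0.88 (0.0095 to 0.134) and Nfkbie between 1.40 and 1.84 (0.0111 to 0.163).

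CWG-cPIP was then set against vehicle within the CUG300 mice. No member was called (adjusted p = 0.483 to 0.509), and of all genes tested 0% were. All 10 means were lower with CWG-cPIP, with a median log2 difference of −0.46, beside −0.0032 over all genes. At an unadjusted p under 0.05, 2 members were lower, Bcl3 and Rel, where 3.6% of all genes were. No member was without overlap between the groups, against 3.5% of all genes lower without overlap.

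This comparison shares the vehicle-treated CUG300 mice with the one before. Bcl3 had 6.13, 5.19 and 6.91 in CWG-cPIP–treated mice, against 6.72, 6.78 and 7.48 in vehicle-treated mice. Replicate 3 of the treated mice lay within the range of the vehicle group and the other 2 below it. The difference was −0.92 (95% interval −1.81 to −0.023, limma adjusted p = 0.483), and it was −0.47 without treated replicate 2 and −1.33 without treated replicate 3.

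Nfkbie had 7.47, 6.45 and 8.42 in CWG-cPIP–treated mice, against 8.17, 7.88 and 8.77 in vehicle-treated mice, a difference of −0.83 (95% interval −1.83 to 0.18). Nfkb2 had 7.58, 6.66 and 8.56 with CWG-cPIP, against 8.16, 8.13 and 8.74 with vehicle, a difference of −0.74 (95% interval −1.68 to 0.19). In each, 2 of the 3 treated mice were below all vehicle-treated mice. Rel had 4.20, 3.94 and 4.55 with CWG-cPIP, against 4.42, 4.63 and 4.85 with vehicle, a difference of −0.40 (95% interval −0.79 to −0.0097). The other 6 members differed by −0.60 (Relb) to −0.28 (Nfkbib), and each of their 95% intervals included 0. Every one of the 10 differences was smaller in size without CWG-cPIP–treated replicate 2 and larger without replicate 3. This follows from replicate 2 being the lowest and replicate 3 the highest treated mouse for all 10 members. Without replicate 2 Nfkbie was −0.33, Nfkb2 −0.27, Relb −0.17 and Tnfaip3 −0.14, and without replicate 3 Nfkbie was −1.31, Nfkb2 −1.22, Relb −1.02 and Tnfaip3 −0.90 (limma adjusted p of at least 0.087 for all members in both fits).

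**Figure D2:**
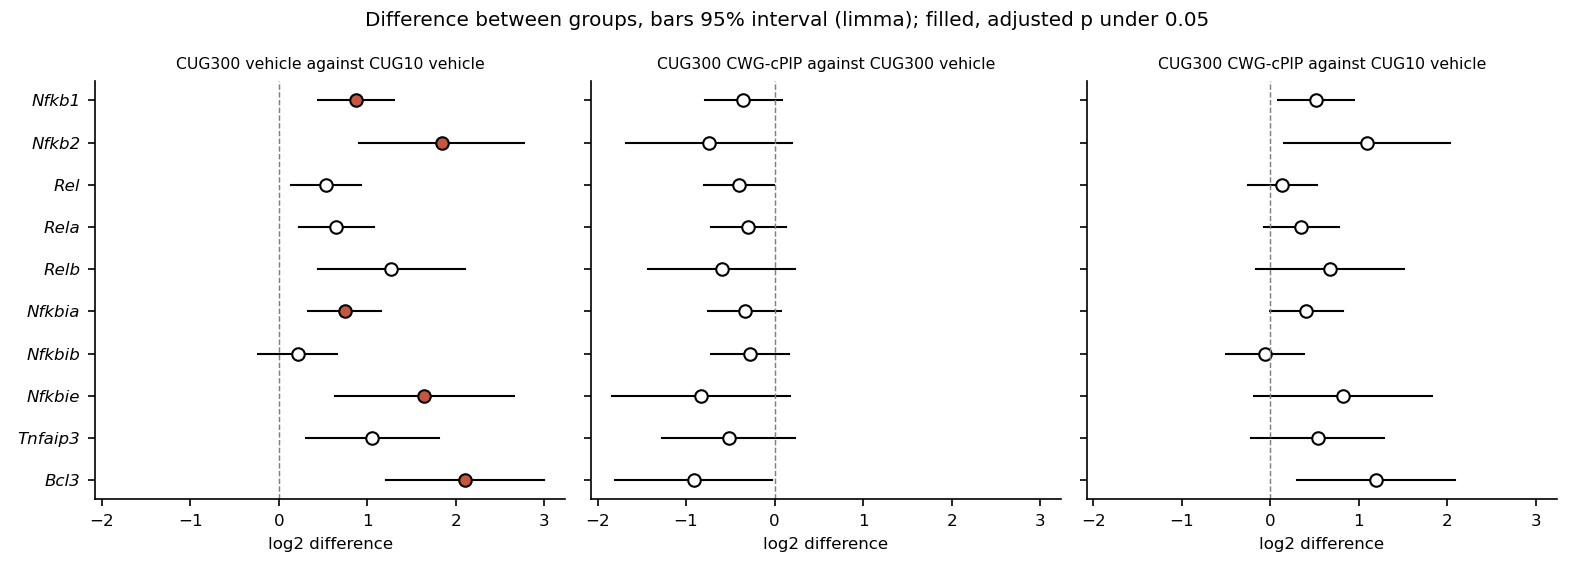
log2 difference (horizontal axis) of each member in 3 comparisons, CUG300 vehicle against CUG10 on the left, CUG300 CWG-cPIP against CUG300 vehicle in the middle and CUG300 CWG-cPIP against CUG10 on the right; bars are 95% intervals from limma, and filled points passed an adjusted p of 0.05. The 5 filled points are all on the left, from Nfkbia at 0.74 to Bcl3 at 2.10, and the middle panel has all 10 points below 0.

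Against the CUG10 mice, the CWG-cPIP–treated CUG300 mice again had no member called (limma adjusted p = 0.255 to 0.932), and 0% of all genes were called. The means of 9 members were higher and that of Nfkbib was lower, with a median of 0.53, beside 0.00047 over all genes. At an unadjusted p under 0.05, 3 members were higher, Bcl3, Nfkb1 and Nfkb2, where 8.12% of all genes were. Nfkb1 alone was without overlap between the groups, which held for 13.4% of all genes in this direction. It had 8.87, 8.53 and 9.26 in treated mice and 8.26, 8.49 and 8.35 in CUG10 mice, a difference of 0.52 (95% interval 0.089 to 0.95), with a gap of 0.042 between the nearest mice.

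The largest difference was again in Bcl3, at 1.19 (95% interval 0.30 to 2.08), followed by Nfkb2 at 1.10 (95% interval 0.16 to 2.03). Both were called, as the only members, when CWG-cPIP–treated replicate 2 was left out, at 1.63 for Bcl3 (limma adjusted p = 0.0239, range over all mice left out 0.0239 to 0.659) and 1.57 for Nfkb2 (0.0315, range 0.0315 to 0.688). In that fit 567 of all genes were called, 497 of them higher, against 0 with all mice. Without CWG-cPIP–treated replicate 3 the differences were 0.77 for Bcl3 (limma adjusted p = 0.551) and 0.61 for Nfkb2 (0.597), and no member was called. Rel differed by 0.13 (95% interval −0.26 to 0.52), and it was −0.025 without CWG-cPIP–treated replicate 3. Nfkbib differed by −0.064 (95% interval −0.51 to 0.38), and it was 0.052 without CWG-cPIP–treated replicate 2. In order of group means, 9 members thus had vehicle-treated CUG300 mice highest, CWG-cPIP–treated mice in the middle and CUG10 mice lowest. Of these neighbors, neither pair passed the test.

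For 9 of the 10 members, all but Nfkbib, the SD was larger over the 3 CWG-cPIP–treated mice than in either vehicle group, which was not tested. The SD of a member over these 3 mice had a median of 0.56 (0.30 to 0.98), against 0.31 (0.22 to 0.45) in vehicle-treated CUG300 mice and 0.15 (0.082 to 0.33) in CUG10 mice. Over all genes tested the median SD was 0.14 in the CWG-cPIP–treated mice, 0.22 in vehicle-treated CUG300 mice and 0.10 in CUG10 mice. The median SD of the members was thus above that of all genes in each of the 3 groups.

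The same treated mouse stood at the same place for every member. Replicate 3 was the highest of the 3 treated mice for all 10 members and replicate 2 the lowest for all 10. Neither this order nor the positions that follow were counted over all genes. Taking the 9 members whose vehicle groups did not overlap, replicate 3 lay within the vehicle-treated CUG300 range for 9. Replicate 2 was at or below the highest CUG10 mouse for 8 and between the groups for 1 (Nfkb1). Replicate 1 lay between the groups for 8 and at or below the highest CUG10 mouse for 1 (Rel).

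Measured from the CUG10 mean, the median of the 10 members was 0.52, −0.061 and 1.09 in replicates 1 to 3 of the CWG-cPIP–treated mice. It was 0.94, 0.84 and 1.25 in the vehicle-treated CUG300 mice and −0.10, 0.15 and −0.094 in the CUG10 mice. Vehicle-treated CUG300 replicate 3 was the highest of its group for 9 members, with Nfkbia highest in replicate 1, and CUG10 replicate 2 was the highest of its group for 10.

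**Figure D3:**
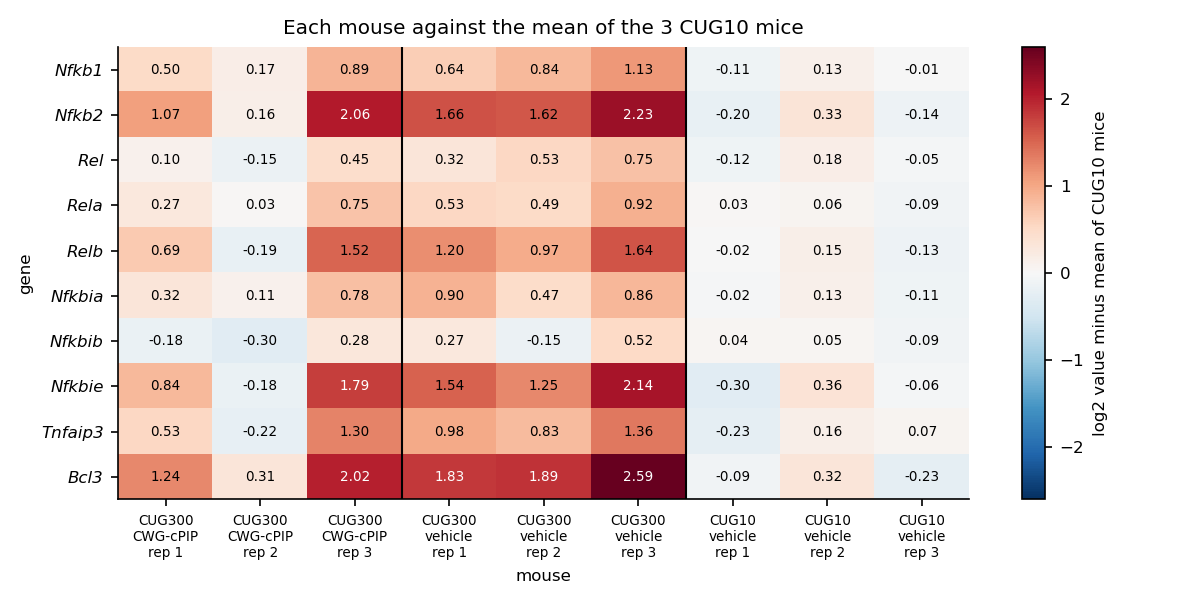
rlog value of each member (rows) in each mouse (columns) minus the mean of the 3 CUG10 mice, on the log2 scale, with CWG-cPIP–treated CUG300 mice on the left, vehicle-treated CUG300 mice in the middle and CUG10 mice on the right; red is higher and blue lower. CWG-cPIP–treated replicate 2 ranges from −0.30 for Nfkbib, where it lies below all 3 CUG10 mice, up to 0.31 for Bcl3. Replicate 3 is near the vehicle-treated CUG300 mice.

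The means over monocyte and macrophage, T and NK cell, B cell and microglia markers had the same order among the 3 treated mice. Choroid plexus markers also had it, over 6.23 to 6.33. The order differed for neutrophil, endothelial, astrocyte, oligodendrocyte, neuron and hippocampal neuron markers. The mean rlog value over 8 monocyte and macrophage markers was 7.60, 6.72 and 8.84 in CWG-cPIP–treated replicates 1 to 3, 8.42 to 9.10 in vehicle-treated CUG300 mice and 5.99 to 6.57 in CUG10 mice. Of these 8, 5 were called higher in vehicle-treated CUG300 against CUG10 mice (Ccr2, Itgal, Ly6c2, Ms4a7 and Plac8), beside 7.37% of all genes. The mean over 8 T and NK cell markers was 4.91, 4.43 and 5.84 in the treated replicates, 5.41 to 5.90 in vehicle-treated CUG300 mice and 4.16 to 4.61 in CUG10 mice, and 5 of the 8 were called higher in vehicle-treated CUG300 against CUG10 mice.

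Microglia markers moved over a smaller range, with means of 9.89, 9.67 and 10.1 in CWG-cPIP–treated replicates 1 to 3. They were at 10.0 to 10.3 in vehicle-treated CUG300 mice and 9.40 to 9.85 in CUG10 mice. Of the 8, 3 were called higher in vehicle-treated CUG300 against CUG10 mice (Aif1, C1qa and Tmem119). The other 5 were not called, among them Cx3cr1 at a difference of 0.17 and Trem2 at 0.070. P2ry12 had a lower mean, with 8.31, 8.47 and 7.72 in vehicle-treated CUG300 mice and 8.80, 8.48 and 8.24 in CUG10 mice. The mean over the 5 neutrophil markers present, of 6 in the list, was 0.052 to 0.13 in all mice. None of the 5 reached the minimum expression. Of 4 B cell markers tested Cd79a was called higher, as was Ly6c1 of 6 endothelial markers, beside 7.37% of all genes called higher. The endothelial markers Flt1 (−0.19, limma adjusted p = 0.511) and Tek (−0.062, limma adjusted p = 0.751) had negative differences that did not pass the test. Of 7 astrocyte markers Gfap and Aqp4 were called higher, while the list had a median of −0.54, with Slc1a2 (−0.85, limma adjusted p = 0.128), Aldoc, S100b and Gja1 at negative differences that did not pass the test. No oligodendrocyte marker of 6 was called (1 lower at an unadjusted p under 0.05, as 14.2% of all genes were). Of 8 general neuron markers Nefl and Syt1 were called lower, as 3.34% of all genes were. Of 8 hippocampal neuron markers Fibcd1 was called lower (−0.80, limma adjusted p = 0.0241). The part of these cells in the members' values was not tested. In bulk tissue, more cells of a type and more RNA of a gene per cell cannot be told apart.

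Differences between 2 members within a mouse leave out any offset that all genes of a library share, and 6 such pairs were compared in 3 comparisons. The stronger pull of low genes such as Rel and Bcl3 toward their own mean stays in these differences, and its part was not tested. With 3 mice against 3, an exact permutation test cannot go below p = 0.1, and all 18 adjusted p-values were at least 0.257. Relb minus Rela was −0.42, −0.61 and −0.37 in vehicle-treated CUG300 mice, against −1.14, −1.005 and −1.13 in CUG10 mice. Relative to Rela, Relb was higher in every vehicle-treated CUG300 mouse than in any CUG10 mouse, by 0.62 on average (exact two-sided permutation test, p = 0.1, adjusted p = 0.257).

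Nfkb2 minus Nfkb1, the noncanonical against the classical precursor, was −0.85, −1.08 and −0.75 in vehicle-treated CUG300 mice and −1.95, −1.66 and −1.98 in CUG10 mice, a difference of 0.97. Bcl3 minus Nfkb1 differed by 1.23, Nfkbie minus Nfkbib by 1.43 and Nfkbia minus Nfkbib by 0.53, each without overlap and with the same exact permutation p = 0.1. Rel minus Rela overlapped between these groups, with a difference of −0.11 (exact permutation p = 0.2, adjusted p = 0.3).

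With CWG-cPIP against vehicle, all 6 pairs overlapped, with differences between −0.56 (Bcl3 minus Nfkb1) and −0.062 (Nfkbia minus Nfkbib). Against the CUG10 mice, Nfkbia minus Nfkbib was 1.37, 1.28 and 1.37 in CWG-cPIP–treated mice and 0.80, 0.95 and 0.86 in CUG10 mice. This pair was the most even among the treated mice (SD 0.053), and its 0.47 difference was without overlap (exact permutation p = 0.1, adjusted p = 0.257). Rel minus Rela was −4.47, −4.48 and −4.59 in the treated mice, against −4.45, −4.19 and −4.26 in CUG10 mice, also without overlap, at −0.22 (exact permutation p = 0.1, adjusted p = 0.257). The other 4 pairs overlapped.

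**Figure D4:**
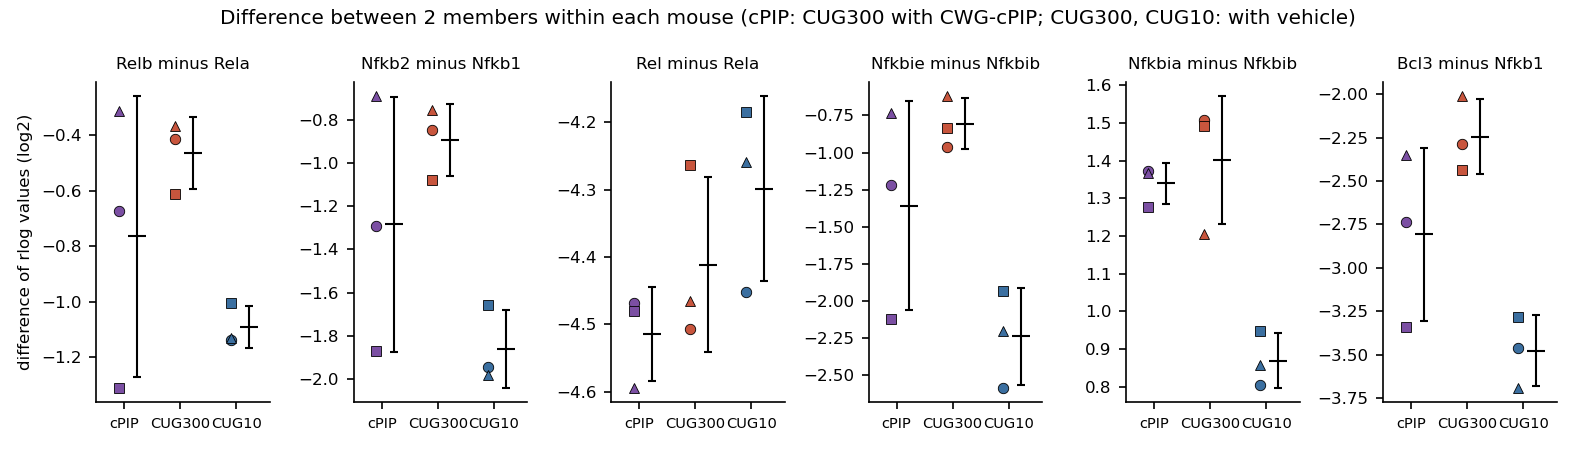
Difference of the rlog values of 2 members within each mouse (log2, vertical axis, its range set per panel), with CUG300 mice given CWG-cPIP (cPIP) on the left, CUG300 mice given vehicle in the middle and CUG10 mice on the right; circles, squares and triangles are replicates 1, 2 and 3, and bars are the mean with 1 SD (n = 3). The vehicle-treated CUG300 mice lie above the CUG10 mice in every panel but Rel minus Rela, and Nfkbia minus Nfkbib keeps the treated mice between 1.28 and 1.37.

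The rest of the pathway was read from lists of other genes. The list called kinases here holds the IkappaB kinases, related and upstream kinases, and subunits or binding partners such as Ikbkg, Tab1, Tab2 and Tab3. All 10 of 10 were tested, and 0 were called in vehicle-treated CUG300 against CUG10 mice. At an unadjusted p under 0.05, 4 were higher, as 16.3% of all genes were, and the median log2 difference was 0.19. Ikbke, the inducible kinase related to the IkappaB kinases, had the largest difference of the 10 (0.98, limma adjusted p = 0.0937). Ikbkg, the regulatory subunit NEMO, had the smallest (0.023, limma adjusted p = 0.908).

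Receptors had 5 of 9 tested called higher, with a median of 1.06: Cd40, Ltbr, Tnfrsf12a, Tnfrsf1a and Tnfrsf1b. Cd40, the costimulatory receptor of antigen-presenting cells, led with 2.43 (limma adjusted p = 0.0355). It had 7.83, 7.45 and 7.52 in vehicle-treated CUG300 mice and 5.15, 5.33 and 5.04 in CUG10 mice. The receptor with the smallest difference was Il1rap, the accessory chain of the interleukin 1 receptor, at 0.31 (limma adjusted p = 0.0811).

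Ligands had 3 of 7 tested called higher, with a median of 0.998: Ltb, Tnf and Tnfsf13b. Tnf, which signals through both tumor necrosis factor receptors, had 5.18, 4.14 and 5.89 in CWG-cPIP–treated mice, 5.75, 5.52 and 5.96 in vehicle-treated CUG300 mice and 4.14, 4.26 and 4.07 in CUG10 mice. Its difference between the vehicle groups was 1.58 (limma adjusted p = 0.0314), and Tnfsf12, the ligand TWEAK, had the smallest (0.27, limma adjusted p = 0.430).

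Adaptors and ubiquitin ligases between receptor and kinase had 9 of 21 called higher, with a median of 0.50. Myd88, the adaptor of the interleukin 1 and Toll-like receptors, led with 1.91 (limma adjusted p = 0.0273), and Traf6 had the smallest difference (−0.062, limma adjusted p = 0.756). The other inhibitors had 2 of 13 tested called higher, N4bp1 and Nkiras2, with a median of 0.20. At an unadjusted p under 0.05, 2 of these 13 were lower, near the 14.2% of all genes. Nfkbiz, a nuclear IkappaB protein like Bcl3, had the largest difference of that list at 0.87 (limma adjusted p = 0.0551), and Tnip1, a partner of A20, the smallest at 0.14 (limma adjusted p = 0.395).

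Known target genes had 12 of 21 tested called higher, with a median of 1.73. Cxcl10, a chemokine that interferon also induces, had the largest difference (4.24, limma adjusted p = 0.0213), and Mmp9, a matrix protease, the smallest (−0.014, limma adjusted p = 0.941). No gene of any of the 6 lists was called lower. These counts stand beside the 7.37% of all genes called higher and the 5 of 10 members.

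**Figure D5:**
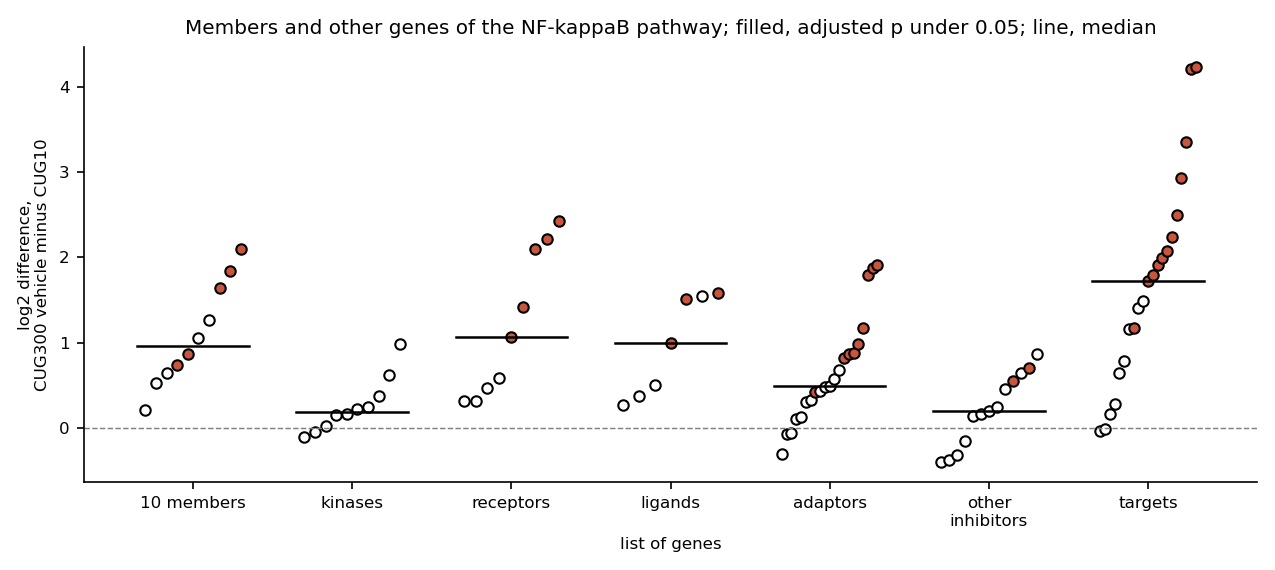
log2 difference between vehicle-treated CUG300 and CUG10 mice (vertical axis) for each tested gene of the members and of 6 lists of other NF-kappaB pathway genes; filled points passed an adjusted p of 0.05 in limma, and lines are list medians. The 10 members have a median of 0.96, the targets one of 1.73 and the kinase list one of 0.19, with no gene of that list filled.

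When CUG300 mice given CWG-cPIP were set against those given vehicle, none of the 6 lists had a gene called by limma. At an unadjusted p under 0.05, 0 of 10 kinases, 1 of 9 receptors, 1 of 7 ligands, 2 of 21 adaptors, 0 of 13 other inhibitors and 1 of 21 targets were lower, beside 3.6% of all genes, and the list medians were −0.080, −0.56, −0.50, −0.26, −0.17 and −0.68 in that order. Against CUG10 mice, again with 0 called, 0 of 10 kinases, 6 of 9 receptors, 4 of 7 ligands, 6 of 21 adaptors, 3 of 13 other inhibitors and 11 of 21 targets were higher in the CWG-cPIP–treated mice at an unadjusted p under 0.05, beside 8.12% of all genes. The list medians there were 0.12, 0.65, 0.50, 0.26, 0.028 and 0.90.

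The genes whose pattern over the 9 mice was nearest to each member were found by the root mean square distance of values centered on each gene's mean. Nfkb2 was nearest to Spi1 (0.068) and Hcls1 (0.071), and its own spread on that measure was 0.90. Nfkbie was nearest to Cd3d (0.11) and Spi1 (0.12), and Bcl3 to H2-D1 (0.11) and H2-T10 (0.12). Nfkb1 was nearest to Rrbp1 (0.040) and B3gnt3 (0.046), Relb to Ctla2b (0.062) and Gem (0.078), and Tnfaip3 to Arrdc4 (0.080) and Ly6e (0.11).

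The members with smaller differences had other neighbors. Rela was nearest to Ctsb (0.051) and Tax1bp3 (0.056), Nfkbia to Sdf2l1 (0.064) and Slc39a1 (0.066), Rel to Galnt7 (0.076) and Naglu (0.079), and Nfkbib to Wdr74 (0.053) and Rcan1 (0.055). Among the members themselves, Nfkb2 and Bcl3 were nearest to each other (0.14), as were Relb and Tnfaip3 (0.14) and Rela and Nfkbia (0.12). The distances are not scaled by the genes' own spreads. These were 0.90 for Nfkb2, 0.98 for Bcl3, 0.68 for Relb and 0.58 for Tnfaip3, but only 0.34 for Rela and 0.37 for Nfkbia. Nfkbib lay farthest from the rest, at 0.22 from Rel, with an own spread of 0.25. These distances are descriptions over 9 mice that share the group differences.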

How the data were processed

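Paired-end RNA libraries of 9 hippocampi were trimmed by the authors with Trim Galore 0.6.6, aligned with STAR 2.7.9a and quantified with RSEM 1.3.3 on GRCm38/mm10. The authors made rlog values with DESeq2 1.36.0 and deposited these log2 values, 1 column per mouse, with symbols only. Annotation, rlog options and strand use are not given in the sources used here, and depth is unknown.

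Groups came from the labels. Genes averaging log2(10) or more over the mice were tested with limma 3.58.1 in R 4.3.3 (1 mean per group, variance pooled over 9 mice, trend, 3.03 prior degrees of freedom), with Benjamini-Hochberg adjustment over 14867 genes in each comparison and calls at an adjusted p under 0.05. The fit was tested on simulated data. Pairs were compared by exact permutation of mice (scipy 1.17.1). Gene coordinates come from GENCODE for GRCm38 and promoter windows from RefSeq on GRCm38.p6, joined by symbol.

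Alternatives were median centering, quantile scaling, other filters, limma without trend or robust, a fit of only the groups compared, a replicate block and leaving out each mouse. Members and lists were chosen with earlier results of these data known. All members are named, in each list the genes with the largest and smallest difference between CUG300 vehicle and CUG10 mice and called genes where needed, and for each member the 2 nearest non-members, leaving out predicted names. Symbols turned into dates (27) are not named.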

Additional observations from a re-analysis of the deposited data

How the results depend on the processing

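The 5 members called in vehicle-treated CUG300 against CUG10 mice became 8 in a fit of only the groups compared, which added Rela (limma adjusted p = 0.0271), Relb (0.00400) and Tnfaip3 (0.00781). That fit called 1778 of all genes, against 1592 with all mice. Leaving out 1 mouse at a time gave 0 to 9 called members in this comparison, 0 between CUG300 mice given CWG-cPIP and those given vehicle, and 0 to 2 in CWG-cPIP–treated CUG300 against CUG10 mice. With 2 mice left in a group, its spread is assumed to be like that of the others. Calls over all genes in the first comparison went between 0 and 2490 in these fits, against 1592 with all mice, and the cause was not tested. In CWG-cPIP–treated CUG300 against CUG10 mice they went between 0 and 567, against 0 with all mice. Nfkbie was not called with quantile scaling, without a filter or with robust variance, and Bcl3 and Rel were not among the genes tested at a mean of at least log2(100).

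Of the single members' values under all alternatives, 460 kept their direction and side of the threshold, 12 came to pass it and 30 no longer passed it. All 30 belong to the 5 calls of the first comparison, the only calls that could be lost. The sign turned in 2, neither of them called: Nfkbib in CWG-cPIP–treated CUG300 against CUG10 mice was 0.052 without CWG-cPIP–treated replicate 2 (−0.24 to 0.052 over all mice left out), and Rel in that comparison was −0.025 without CWG-cPIP–treated replicate 3 (−0.025 to 0.28).

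Replicate numbers did not pair the mice, with correlations between same-numbered mice of −0.499 to 0.413. A fit with the number as a replicate block called the same 5 members in the first comparison and 0 in each of the others. Depth is unknown, so no limit from counts could be given for the low genes Rel and Bcl3.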
